A study of Homo sapiens with 21 samples.

Results

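EVI2A and EVI2B are short genes that lie inside an intron of NF1 on human chromosome 17 and are transcribed from the opposite strand. The 3 genes were read here by 11 of the 22277 probe sets of the array: 1 for EVI2A (204774_at), 1 for EVI2B (211742_s_at) and 9 for NF1. Probe sets were selected by the platform annotation, and no probe set that carried several symbols named any of the 3 genes. The trio was chosen with its log2 intensities by cell line and hairpin already known, so its values are given as a description with standard errors (SE) and no test.

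NF1 encodes neurofibromin, a GTPase-activating protein that returns RAS to its inactive, GDP-bound form. It is a tumour suppressor whose loss is known in myeloid leukaemia, and partial NF1 copies elsewhere in the genome can share probes with it. EVI2A and EVI2B encode membrane proteins and take their name from a viral integration site of mouse myeloid leukaemia. EVI2B (CD361) is found on white blood cells and is known as a target of the transcription factor C/EBP alpha that is needed in granulocyte formation. The third gene in the same intron, OMG, encodes a myelin glycoprotein of oligodendrocytes and neurons.

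RNA was measured on Affymetrix HT U133A arrays in MOLM-14, U937 and HL-60 cells, which are 3 human lines of acute myeloid leukaemia. Every line was transduced with 1 of 2 short hairpin RNAs against the tyrosine kinase SYK (shSYK_1 or shSYK_2, 2 arrays each) or with a hairpin against luciferase (shLuc, 3 arrays), which gave 9 groups and 21 arrays. All groups were selected with puromycin at 1 µg/ml, 48 h after infection, and RNA was taken at day 5. Per the labels, replicates of a group were transduced separately in the same lines, so the errors reach no further than these lines. The target sequences are shown because every contrast rests on them. The SYK hairpins target different stretches of one transcript.
shSYK_1: GCAGCAGAACAGACATGTCAA
shSYK_2: GCAGGCCATCATCAGTCAGAA
shLuc: CCTAAGGTTAAGTCGCCCTCG

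SYK (207540_s_at) had log2 intensities of 5.35 to 6.16 with the SYK hairpins and 8.42 to 8.49 with shLuc in MOLM-14, 6.55 to 7.02 and 8.66 to 8.70 in U937, and 6.66 to 7.04 and 8.91 to 9.05 in HL-60. Its second probe set, 209269_s_at, had 3.68 to 4.82 on the SYK hairpin arrays of the 3 lines and 5.79 to 6.48 on the shLuc arrays. The pan-leukocyte and myeloid markers PTPRC, FCER1G and TYROBP had summed intensities with a log2 of 9.52 to 11.36 on the SYK hairpin arrays and 9.96 to 10.51 on the shLuc arrays, and CD33 and LYZ were not analysed here. The T and B cell markers CD3D, CD3E, CD2, MS4A1 and CD79A had 5.62 to 5.87 on the SYK hairpin arrays and 5.63 to 5.88 on the shLuc arrays. The sums hide differences between lines. Singly, PTPRC had log2 intensities of 8.27 to 10.20, TYROBP of 6.97 to 10.48 and FCER1G of 4.17 to 9.91. In the controls FCER1G had -3.57 for MOLM-14 minus U937 and -3.64 for MOLM-14 minus HL-60. For MOLM-14 minus HL-60, PTPRC had 1.27 and TYROBP -1.53. One array carries conflicting labels: HL-60 shSYK_2 replicate 1 is shSYK_2 by title and treatment but shSYK_1 by source name. It also stood apart, with an upper quartile intensity of 122.3 against 134.49 to 139.77 on the other arrays and a correlation of 0.9933 with its replicate, where the other replicate pairs had at least 0.9969. The main results that rest on it are given with and without it.

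EVI2A was higher with SYK knockdown in each line, and most of all in U937. In U937 its log2 intensity was 7.89 and 8.20 with shSYK_1 and 8.46 and 8.51 with shSYK_2, against 7.02, 6.84 and 6.99 with shLuc. The lowest of the 4 knockdown arrays stood 0.87 above the highest control. In MOLM-14 it was 9.72 and 9.70 with shSYK_1 and 9.50 and 9.66 with shSYK_2, against 9.33, 9.31 and 9.10 with shLuc. HL-60 had 8.88 and 8.77 with shSYK_1 and 8.94 and 9.05 with shSYK_2, against 8.51, 8.57 and 8.49 with shLuc. The gap between the groups was 0.17 in MOLM-14 and 0.21 in HL-60, narrower than in U937, and in no line did the groups overlap. In bulk RNA a higher share of cells that express a gene and more RNA per cell cannot be told apart.

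EVI2B gave the same picture on its own probe set. U937 had log2 intensities of 8.68 and 8.89 with shSYK_1 and 8.70 and 8.92 with shSYK_2, against 7.60, 7.37 and 7.75 with shLuc. MOLM-14 had 10.25 and 9.98 with shSYK_1 and 9.71 and 9.91 with shSYK_2, against 9.38, 9.42 and 9.25 with shLuc. In HL-60 the values were 9.92 and 9.87 with shSYK_1 and 9.92 and 9.79 with shSYK_2, against 9.18, 9.19 and 9.10 with shLuc. Again no control array reached a knockdown array, with a gap of 0.28 for MOLM-14, 0.92 for U937 and 0.61 for HL-60.

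For EVI2A and EVI2B together, 6 of 6 gene and line comparisons had the SYK hairpin arrays above the shLuc arrays without overlap. Of all 12165 genes tested, 1.5% were higher without overlap in all 3 lines. Without overlap in either direction were 18.9% of genes for MOLM-14, 17.1% for U937 and 22% for HL-60. Because the genes were chosen on these values, nothing is read from the count beside those shares.

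NF1, the gene around them, did not share the pattern. On its brightest probe set (212676_at) the log2 intensity in MOLM-14 was 5.79 and 5.73 with shSYK_1 and 6.35 and 6.24 with shSYK_2, against 6.11, 6.25 and 6.18 with shLuc. U937 had 5.09 and 5.45 with shSYK_1 and 6.06 and 6.09 with shSYK_2, against 5.93, 6.0 and 5.62 with shLuc. HL-60 had 6.02 and 6.17 with shSYK_1 and 6.08 and 6.30 with shSYK_2, against 6.15, 6.14 and 6.41 with shLuc. Over both hairpins the knockdown and control arrays overlapped in every line, but in MOLM-14 and U937 the hairpins parted. There both shSYK_1 arrays were below all 3 shLuc arrays, while the shSYK_2 arrays were above the controls in U937 and overlapped them in MOLM-14.

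**Figure D1:**
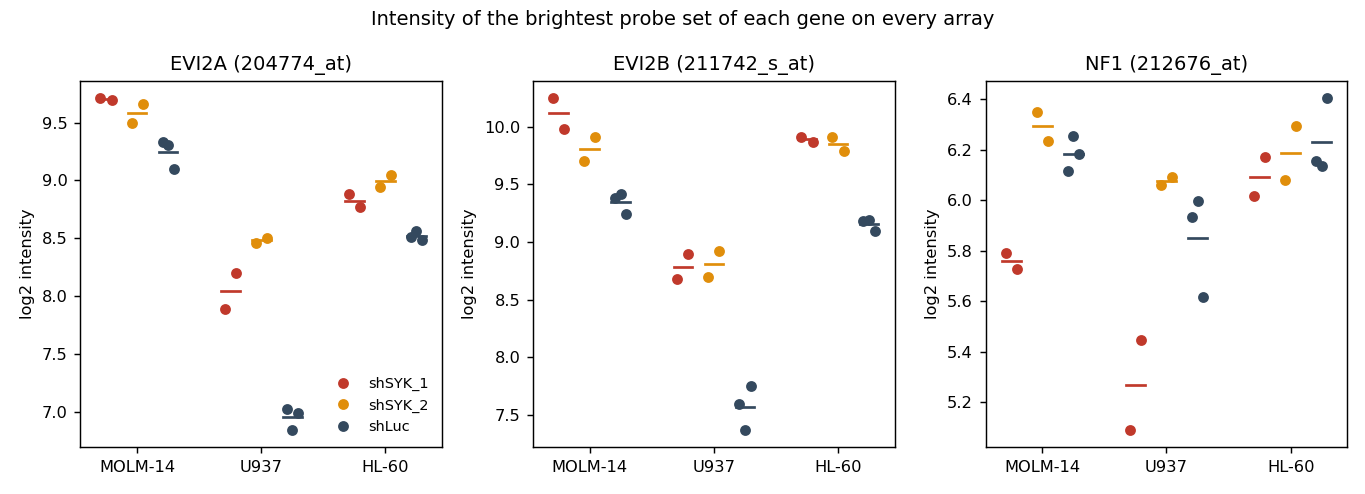
Log2 intensity of EVI2A, EVI2B and NF1 (vertical axis, one probe set per panel, each with its own range) on the 21 arrays, grouped by line and, from left to right, shSYK_1, shSYK_2 and shLuc. Points are arrays and short lines are group means. For EVI2A and EVI2B every knockdown array lies above the shLuc arrays of its line, with the widest gaps (0.87 and 0.92) in U937, while for NF1 the shSYK_1 arrays are below the shLuc arrays in MOLM-14 and U937, and the SYK hairpin arrays of both kinds overlap as one set with the shLuc arrays in each line.

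The size of the difference was taken as the mean of the hairpin groups minus the shLuc mean, from one limma model over all 21 arrays. EVI2B was higher by 0.85 on the log2 scale averaged over the lines (SE 0.0562), a 1.81-fold difference that ranked 47 from the highest among 12165 genes. EVI2A was higher by 0.70 (SE 0.0459), or 1.62-fold, at rank 89. NF1 differed by -0.14 (SE 0.0597), or 0.91-fold. Leaving out HL-60 shSYK_2 replicate 1 gave 0.84 for EVI2B, 0.71 for EVI2A and -0.12 for NF1. The median of all genes was 0.01. Among the markers of the cells, FCER1G and TYROBP, 2 of the 3 measured leukocyte and myeloid markers, rose by 0.53 and 0.72 (adjusted p = 8.39e-09 and 5.5e-10), and PTPRC did not pass the test (0.10). With the mean of its probe sets PTPRC was called as well, at 0.29 (adjusted p = 1.06e-05). On its brightest probe set PTPRC rose by 0.35 with shSYK_1 (adjusted p = 0.0009). With shSYK_2 its difference was -0.15 and was not called (adjusted p = 0.138). Of the 5 T and B cell markers, CD2 rose by 0.25 at log2 intensities of 2.84 to 3.91, and 4 were not called. The part of these markers in the EVI2A and EVI2B differences was not tested. The method that made the intensities compresses fold changes, more so at low intensity.

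By line, the difference of EVI2A was 1.31 in U937 (SE 0.0796, 2.48-fold, rank 19), 0.40 in MOLM-14 and 0.39 in HL-60 (same SE), and 0.42 in HL-60 without the array of conflicting labels. The difference in U937 exceeded that in MOLM-14 by 0.91 and that in HL-60 by 0.92 (SE 0.113 for both), while MOLM-14 and HL-60 were 0.01 apart. For EVI2B the difference was 1.23 in U937 (SE 0.0974, 2.34-fold, rank 25), 0.61 in MOLM-14 and 0.72 in HL-60, with 0.69 in HL-60 without that array. U937 exceeded MOLM-14 by 0.61 and HL-60 by 0.51 (SE 0.138), and MOLM-14 minus HL-60 was -0.10. U937 thus had the highest differences for both nested genes and, as its shLuc arrays show, the lowest starting levels. The NF1 differences were -0.16 for MOLM-14, -0.18 for U937 and -0.09 for HL-60 (SE 0.103), the last being -0.04 without that array.

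The hairpins could be compared at the same time and in the same lines. EVI2A differed from shLuc by 0.62 with shSYK_1 and 0.78 with shSYK_2 averaged over lines (SE 0.0549), and shSYK_2 minus shSYK_1 was 0.16 (SE 0.0601). In U937 the EVI2A differences were 1.10 with shSYK_1 and 1.53 with shSYK_2 (SE 0.0951), with both shSYK_2 arrays above both shSYK_1 arrays. The share of all genes with such an order was not taken. EVI2B differed from shLuc by 0.91 with shSYK_1 and 0.80 with shSYK_2 (SE 0.0672), and shSYK_2 minus shSYK_1 was -0.11 (SE 0.0736). Both comparisons with shLuc use the same control arrays. Without HL-60 shSYK_2 replicate 1, the shSYK_2 average was 0.80 for EVI2A and 0.78 for EVI2B, and shSYK_2 minus shSYK_1 was 0.18 for EVI2A and -0.13 for EVI2B. For these genes the hairpins gave differences of one sign in each of the 3 lines.

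For NF1 the average difference from shLuc was -0.38 with shSYK_1 and 0.10 with shSYK_2 (SE 0.0714), and shSYK_2 minus shSYK_1 was 0.48 (SE 0.0782). The shSYK_1 difference was -0.43 for MOLM-14, -0.58 for U937 and -0.14 for HL-60. With shSYK_2 it was 0.11 for MOLM-14, 0.23 for U937 and -0.05 for HL-60 (SE 0.124 for each). Without HL-60 shSYK_2 replicate 1 the shSYK_2 value was 0.06 for HL-60 and 0.13 on average, and shSYK_2 minus shSYK_1 was 0.51. The average knockdown value of NF1 is therefore a mean over hairpins that did not give the same sign in MOLM-14 and U937. The shSYK_2 values in MOLM-14 and HL-60 were smaller than their SE. Those in U937 and on average were not far above their SE, so the signs with shSYK_2 are uncertain.

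**Figure D2:**
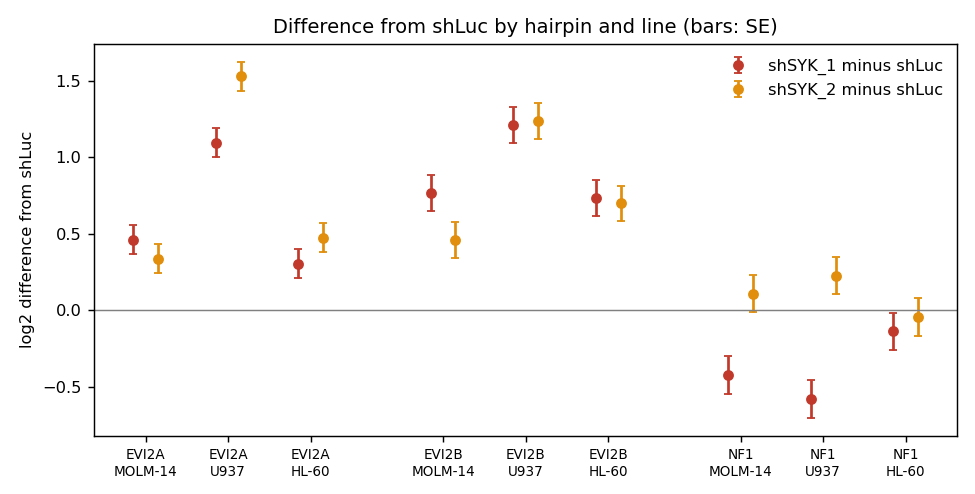
Log2 difference from shLuc (vertical axis) for shSYK_1 and shSYK_2 in each line, for EVI2A, EVI2B and NF1. Points are differences of group means and bars are SE. EVI2A and EVI2B are above 0 with both hairpins in every line, up to 1.53 for EVI2A with shSYK_2 in U937, whereas NF1 ranges from -0.58 to 0.23.

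The other 8 NF1 probe sets were dimmer, with mean log2 intensities between 2.53 and 5.00. Over all 9, the knockdown difference averaged over lines ran from -0.14 to 0.18, with 4 above 0 and 5 below. Without HL-60 shSYK_2 replicate 1 it ran from -0.12 to 0.13, with 5 above 0 and 4 below. The value of 0.18 (SE 0.0826) was that of 204325_s_at, whose shSYK_2 value was 0.40 (SE 0.0987). Without the array of conflicting labels, where 204325_s_at read 5.46 against 4.51 on its replicate and 4.0 to 4.11 on the HL-60 shLuc arrays, these values were 0.10 and 0.25. The shSYK_2 value of 211094_s_at was then 0.26. The second-brightest set, 211914_x_at, differed by -0.08 with shSYK_1 and 0.02 with shSYK_2 (SE 0.0822). On 212678_at the values were -0.22 with shSYK_1 and 0.12 with shSYK_2 (SE 0.134), the same signs as on 212676_at with a wider error. In all, 6 of the 9 sets had a higher value with shSYK_2 than with shSYK_1, and 3 a lower one, between -0.14 and 0.48, and without that array the split was again 6 and 3. Arrays of the SYK hairpins and of shLuc overlapped in 25 of 27 probe set and line comparisons. The other 2 were 204325_s_at in HL-60 and, by a gap of 0.03, 216115_at in U937. Over all genes, each read by its brightest probe set alone, 18.9% were without overlap for MOLM-14, 17.1% for U937 and 22% for HL-60. Without HL-60 shSYK_2 replicate 1, 24 of the 27 overlapped, and no share over all genes was taken for that setting. With the mean of its probe sets in place of the brightest one, NF1 differed by 0.0066 averaged over lines.

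**Figure D3:**
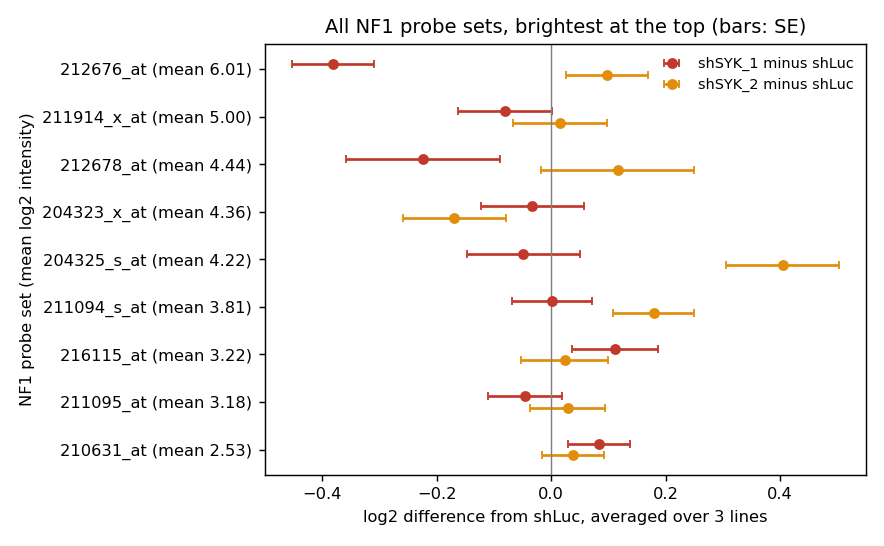
Log2 difference from shLuc averaged over the 3 lines (horizontal axis) for shSYK_1 and shSYK_2 on each of the 9 NF1 probe sets, brightest at the top, with SE bars and the mean log2 intensity beside each name. The brightest set lies farthest below 0 with shSYK_1 (-0.38), and 204325_s_at has a shSYK_2 value of 0.40, which is 0.25 without HL-60 shSYK_2 replicate 1.

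Levels in the shLuc controls also separated the lines. EVI2A was 4.90-fold higher in MOLM-14 than in U937 (log2 difference 2.29, SE 0.0851), higher in MOLM-14 than in HL-60 by 0.72 and lower in U937 than in HL-60 (-1.57). EVI2B was 3.43-fold higher in MOLM-14 than in U937 (1.78, SE 0.104), and U937 minus HL-60 was -1.58. MOLM-14 minus HL-60 was 0.19 for EVI2B, a smaller distance between these lines than the 0.72 of EVI2A. On its brightest probe set NF1 differed less, by 0.33 for MOLM-14 minus U937, -0.05 for MOLM-14 minus HL-60 and -0.38 for U937 minus HL-60 (SE 0.111). Its 9 probe sets did not share these signs: in each of the 3 contrasts 4 were above 0 and 5 below. They ran from -0.31 to 0.38 for MOLM-14 minus U937, -0.36 to 0.12 for MOLM-14 minus HL-60 and -0.42 to 0.23 for U937 minus HL-60. The array medians of the controls were higher than in HL-60 by 0.110 in MOLM-14 and 0.118 in U937 on the log2 scale, and the values above are not corrected for this.

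Across the 9 groups, the order of the EVI2A means was MOLM-14 shSYK_1 (9.71), MOLM-14 shSYK_2 (9.58), MOLM-14 shLuc (9.25), HL-60 shSYK_2 (9.0), HL-60 shSYK_1 (8.83), HL-60 shLuc (8.52), U937 shSYK_2 (8.48), U937 shSYK_1 (8.05) and U937 shLuc (6.95). Of the neighbours in that order, HL-60 shLuc and U937 shSYK_2 overlapped in their arrays. With shSYK_2, EVI2A in U937 thus stood at about the level of the HL-60 controls, whereas U937 controls were the lowest of all groups. These levels are not corrected for array medians, which in the controls were 0.118 higher in U937 than in HL-60. Whether the overlap remains after such a correction was not tested. For EVI2B the means ran from 10.12 in MOLM-14 shSYK_1 to 7.57 in U937 shLuc. HL-60 shSYK_1 (9.89), HL-60 shSYK_2 (9.86) and MOLM-14 shSYK_2 (9.81) were neighbours with overlapping arrays, as were U937 shSYK_2 (8.81) and U937 shSYK_1 (8.79), and both knockdown groups of U937 were below the controls of HL-60 (9.16) and MOLM-14 (9.35). NF1 means lay between 6.29 in MOLM-14 shSYK_2 and 5.27 in U937 shSYK_1, and the 6 highest groups overlapped from one to the next.

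EVI2A and EVI2B varied together within lines. After the mean of each line was taken off, their Pearson r over the 21 arrays was 0.92. Of 7296 brighter genes compared, 1 was closer to EVI2A and 0 were closer to EVI2B. Over the 9 group means r was 0.93, and 14 genes were closer to EVI2A and 13 to EVI2B. The genes were chosen with these values known, so nothing is read from these ranks. Within single lines (7 arrays each) r was 0.96 for MOLM-14, 0.96 for U937 and 0.91 for HL-60. These points share arrays and fall into a knockdown and a control cluster, so r includes the knockdown difference. With the mean of each of the 9 groups taken off instead, r was 0.67 and Spearman's rho 0.59 over 21 arrays, and r was 0.63 without the 2 farthest arrays. Against NF1, the r after taking off line means was -0.11 for EVI2A and -0.36 for EVI2B. With group means taken off it was 0.11 and -0.26, and over the 9 group means 0.39 and 0.33.

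**Figure D4:**
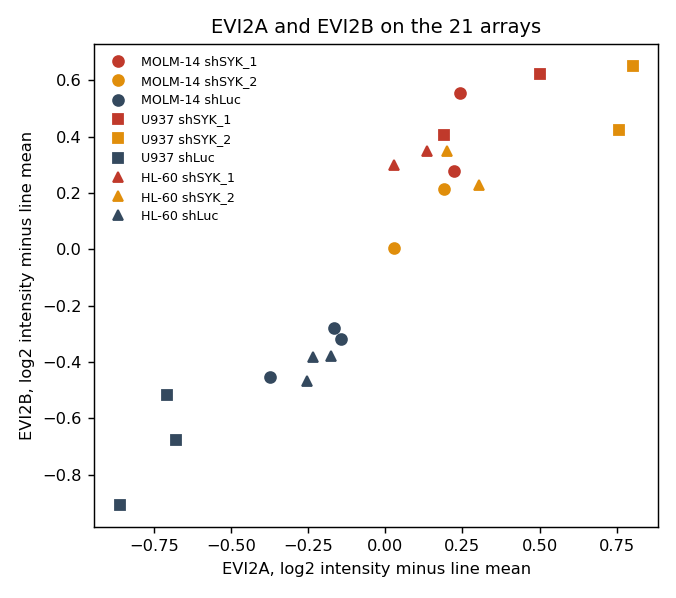
EVI2A (horizontal axis) and EVI2B (vertical axis), each as log2 intensity minus the mean of its line, on the 21 arrays. Symbols mark the lines and colours the hairpins. All shLuc arrays lie at the lower left and all SYK hairpin arrays at the upper right (r = 0.92).

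Other genes that tracked EVI2A over the 21 arrays after taking off line means were FCGR1BP (r = 0.97), FCGR1A (0.92), NPC1 (0.86), FTH1P5 (0.86) and PSAP (0.85). FCGR1A is the high-affinity IgG receptor of myeloid cells and FCGR1BP a near-identical copy, so these probe sets can bind the same transcripts. For EVI2B they were FCGR1BP (0.92), MVP (0.92), NBR1 (0.91), TYROBP (0.91) and CSTA (0.91). TYROBP is an adaptor with an activation motif to which SYK binds. NF1 was tracked by PRR7 (0.88), USE1 (0.88), AKAP7 (0.88), ACAP2 (0.87) and HSP90AB1 (0.87), none of them on the lists of EVI2A or EVI2B. Over the 9 group means, the closest to EVI2A were FCGR1A (0.97), TXNIP (0.95), FCGR1BP (0.95), PLAU (0.94) and CASP4 (0.94). Those closest to EVI2B were NBR1 (0.97), PPP2CB (0.96), ZSWIM8 (0.95), TXNIP (0.95) and ANXA5 (0.95), and to NF1 PER2 (0.95), LRRC37A2 (0.95), ZNF33B (0.94), NUDT13 (0.93) and FBXL4 (0.93). These are the highest of 7296 values per gene and describe likeness alone.

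The genes on either side allow a comparison with the surroundings: OMG and the 15 nearest protein-coding genes before and after NF1, of which 17 of 31 were measured. Their tests ran over all genes with Benjamini-Hochberg adjustment, and a gene rose or fell where its adjusted p was below 0.05. OMG, the other gene in the intron, had log2 intensities between 2.74 and 3.38 on all arrays, and its knockdown and control arrays overlapped in every line. Its knockdown difference was 0.06 (SE 0.0465, adjusted p = 0.332), against 0.70 and 0.85 for EVI2A and EVI2B. At such low intensity a change in OMG could go unseen, so nothing is read from this contrast. In the knockdown average 4 of the 17 rose, 4 fell and 9 were not called, with a median of 0.03, while 34.1% of all genes were called. ADAP2, an ARF GTPase-activating protein and the nearest measured gene before NF1, rose by 0.54 (adjusted p = 5.1e-06). ATAD5, which unloads the sliding clamp PCNA from DNA, fell by 0.73 (adjusted p = 2.49e-08), and the cysteine protease BLMH fell by 0.39 (adjusted p = 0.000755). On the far side of NF1, the nearest measured genes were not called: UTP6 (-0.07), SUZ12 (0.06) and RHOT1 (0.09), of which UTP6 and RHOT1 were named after their values were seen.

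With shSYK_1, 3 neighbours rose, 5 fell and 9 were not called (35.6% of all genes called), and with shSYK_2 it was 5, 4 and 8 (30.3% of all genes). BLMH fell by 0.71 with shSYK_1, against a difference of -0.06 with shSYK_2 (adjusted p = 0.691). ATAD5 fell by 0.38 with shSYK_1 and 1.08 with shSYK_2, and ADAP2 rose by 0.67 and 0.41. CDK5R1, an activator of the kinase CDK5, rose by 0.55 with shSYK_2, and its value with shSYK_1 was 0.08 (adjusted p = 0.605). Without HL-60 shSYK_2 replicate 1, 4 rose and 5 fell with shSYK_1, and 6 rose and 2 fell with shSYK_2. The share over all genes was not taken for that setting. With neither hairpin did the called neighbours share one direction.

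**Figure D5:**
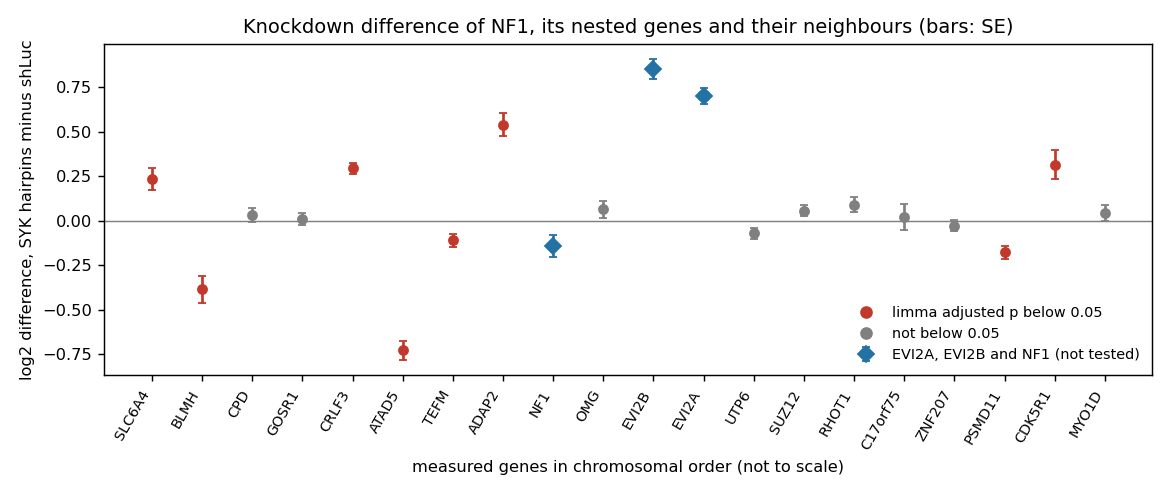
Log2 difference between the SYK hairpins and shLuc averaged over the 3 lines (vertical axis, SE bars) for measured genes in chromosomal order, spacing not to scale, with OMG, EVI2B and EVI2A drawn after NF1, within which they lie. Diamonds are EVI2A, EVI2B and NF1. EVI2B (0.85) and EVI2A (0.70) have the highest values drawn and ATAD5 (-0.73) the lowest.

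Between the shLuc controls, 8 neighbours were higher and 5 lower in MOLM-14 than in U937 (52.1% of all genes called), 4 higher and 10 lower in MOLM-14 than in HL-60 (49.4%), and 1 higher and 9 lower in U937 than in HL-60 (52.8%). BLMH parted U937 from the others, with log2 differences of 5.02 for MOLM-14 minus U937 and -5.65 for U937 minus HL-60 (adjusted p = 9.29e-15 and 2.67e-15). Carboxypeptidase D (CPD) was lower in MOLM-14, by -1.57 against U937 and -1.60 against HL-60, and C17orf75 by -1.23 and -0.91. CDK5R1 was higher in U937 than in HL-60 by 1.49, or 0.76 with the mean of its probe sets, and SUZ12, a subunit of Polycomb repressive complex 2, lower by -1.01. PSMD11, a proteasome subunit, was lower in MOLM-14 than in HL-60 (-0.68), and the mean of its probe sets gave -0.30. OMG was lower in MOLM-14 than in HL-60 by -0.24 (adjusted p = 0.0278), at low intensity, whereas MOLM-14 minus U937 was -0.04.

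Since neurofibromin acts on RAS, a list of genes of the RAS cycle was examined, with RAS proteins, exchange factors, GTPase-activating proteins and the RAF to ERK kinases. Of 22 measured genes of 33, 4 rose, 5 fell and 13 were not called in the knockdown average, with a median of -0.04. The called share was 40.9%, against 34.1% over all genes. This list too was chosen with earlier results of these data known, so nothing is read from the share. Without MOLM-14 shLuc replicate 2, 4 rose and 1 fell, and no share over all genes was taken for that setting. RASGRP2, an exchange factor for RAP and RAS, fell by 0.58 (SE 0.0419, adjusted p = 1.99e-08), or -0.37 with the mean of its probe sets. The GTPase-activating proteins RASA4 and RASAL1 rose by 0.55 and 0.28, and MAP2K2, the kinase MEK2, by 0.18. RASA4 has a near-identical copy, and its reading is uncertain.

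Split by hairpin, the list had 8 rising and 1 falling with shSYK_1 (median 0.05) and 1 rising and 7 falling with shSYK_2 (median -0.08), called shares of 40.9% and 36.4% against 35.6% and 30.3% over all genes. RASGRP2 was the gene that fell with shSYK_1 (by 0.28), and it fell by 0.87 with shSYK_2, while RASA4 rose by 0.41 and 0.69. HRAS fell by 0.27 and MRAS by 0.47 with shSYK_2, against differences of -0.02 and 0.01 with shSYK_1 that were not called. RASAL1 rose by 0.46 and MAP2K2 by 0.28 with shSYK_1, against 0.10 and 0.08 with shSYK_2, not called. NF1 on its brightest set stood at -0.38 with shSYK_1 and 0.10 with shSYK_2. The hairpin difference of the list itself was not tested, and nothing is read from its called shares. With HL-60 shSYK_2 replicate 1 left out, the counts were 9 and 1 for shSYK_1 and 1 and 6 for shSYK_2. With that array placed in shSYK_1, as its source name has it, they were 5 and 1 for shSYK_1, 1 and 3 for shSYK_2, and 3 and 3 in the knockdown average. In neither setting was a share over all genes taken.

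EVI2B is tied to granulocyte formation, so 15 genes of myeloid maturation were set beside it. In the knockdown average 7 rose, 3 fell and 5 were not called (median 0.08), a called share of 66.7% against 34.1% over all genes. The list was chosen with earlier results of these data known, so nothing is read from its called share. The list held 4 genes of the C/EBP family, all named here after their values were seen. CEBPA, the known regulator of EVI2B, fell by 0.16 (SE 0.0325, adjusted p = 0.00099) and CEBPB rose by 0.31 (SE 0.0421, adjusted p = 2.21e-05). CEBPD (0.08, adjusted p = 0.43) and CEBPE (0.07, adjusted p = 0.549) were not called. The integrin ITGAM rose by 0.97, the NADPH oxidase subunit CYBB by 0.92 and the antimicrobial peptide CAMP by 0.86, whereas the azurophil granule protease PRTN3 fell by 0.63. ITGAM gave 0.45 and CYBB 0.43 with the mean of their probe sets.

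Both hairpins gave 7 rising genes on that list, with 3 falling for shSYK_1 and 4 for shSYK_2. The called shares were 66.7% with shSYK_1 and 73.3% with shSYK_2, against 35.6% and 30.3% over all genes. Nothing is read from these shares either, because earlier results were known when the list was chosen. ITGAM rose by 1.73 with shSYK_1 and 0.21 with shSYK_2, and CYBB by 1.59 and 0.24, while the formyl peptide receptor FPR1 rose by 0.94 and 0.55 and CAMP by 1.06 and 0.66. PRTN3 fell by 0.49 with shSYK_1 and 0.78 with shSYK_2, and MPO, the myeloperoxidase of the same granules, by 0.44 and 0.53. The differences of EVI2A were 0.62 with shSYK_1 and 0.78 with shSYK_2, and those of EVI2B 0.91 and 0.80. Without HL-60 shSYK_2 replicate 1 the counts were 7 rising and 4 falling with either hairpin. No share over all genes was taken without that array.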

How the data were processed

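The deposited table holds one intensity per probe set and array on a linear scale (3.232 to 13024.671), which the authors computed by RMA (version not given), according to the submitters' processing notes. The array build is not given in the sources used here. Log2 was taken here without a pseudocount, although the planned design assumed log2 values. Array medians were 18.368 to 20.59, and the number of arrays limits precision.

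Of 22277 probe sets, 62 were controls, 19724 had 1 symbol, 568 several and 1923 none; 19707 symbols were updated by gene ID through RefSeq (GRCh38.p14), used for names and gene order. The probe set with the highest mean stood for each of 12165 genes. A group-means model on 21 arrays was fitted with limma 3.58.1 in R 4.3.3 (12 residual and 4.09 prior degrees of freedom), with two-sided tests and Benjamini-Hochberg adjustment, called below 0.05. A second such fit over probe sets gave the errors of each NF1 probe set.

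Named were all probe sets of the 3 genes, SYK and OMG; up to 3 called neighbours with the largest difference per contrast; up to 4 called genes of each list with the smallest p; and the 5 genes closest by Pearson r, among the 60% of genes with the highest mean. The members and lists were chosen with earlier results of these data known. List genes without a measured probe set were not analysed here.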

Additional observations from a re-analysis of the deposited data

How the results depend on the processing

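Alternatives were median centring of each array, a replicate block, the other label for HL-60 shSYK_2 replicate 1, leaving out each array, trend and robust variance, omission of the dimmest 40% of genes, averaging the probe sets of a gene, and log2(intensity + 16) for differences of EVI2A, EVI2B and NF1. Differences moved by less than the spread of replicates and counts by less than 1.5 times, except as follows. Median centring gave EVI2A 0.61 for MOLM-14 minus HL-60 and -1.69 for U937 minus HL-60. The mean of probe sets gave NF1 0.0066 averaged over lines, -0.00079 in U937, 0.041 for MOLM-14 minus U937 and -0.12 for U937 minus HL-60. With log2(intensity + 16), EVI2A was 2.15 for MOLM-14 minus U937 and -1.45 for U937 minus HL-60. With the relabelled array, 4 RAS cycle genes were called for shSYK_2 and 6 each for shSYK_1 and the knockdown average. NF1 changed sign in HL-60 with averaged probe sets (0.049) and for MOLM-14 minus HL-60 without HL-60 shLuc replicate 3 (0.039). Leaving out single arrays gave 5 to 10 RAS cycle genes in the knockdown average, with 5 when MOLM-14 shLuc replicate 2 was left out and 6 without MOLM-14 shSYK_2 replicate 1, U937 shLuc replicate 2 or U937 shSYK_2 replicate 2, 0.67 to 0.73 for EVI2A, 0.82 to 0.88 for EVI2B and -0.18 to -0.11 for NF1. No pairing by replicate number was seen: deviations of 18 same-numbered pairs correlated between -0.214 and 0.0918. In groups of 2 arrays the deviations mirror each other, so these pairs are not independent and cannot exclude a pairing. With the replicate block the averages were 0.68 for EVI2A, 0.86 for EVI2B and -0.15 for NF1, 6 neighbours, 7 RAS cycle genes and 9 maturation genes were called, and no count moved by over 1.5 times. For the counts under these alternatives no share over all genes was taken. Low intensity limits OMG and the 8 dim NF1 probe sets.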
